A study of Mus musculus with 4 samples.

Results

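The genes described here are the mitotic cyclins Ccna2, Ccnb1 and Ccnb2, the related cyclin Ccnf, their kinase Cdk1, the transcription factors Foxm1 and Mybl2, the ubiquitin-conjugating enzyme gene Ube2c, and the proliferation markers Top2a and Mki67. They were chosen by name, as genes of the G2 and M phases and markers of dividing cells. Of the 10 genes named, 9 had library values among the 9244 genes with such values. Expression of Mybl2 was not analysed here, and only its promoter was searched. RNA sequencing compared Sin3B KO with wild-type (WT) long-term haematopoietic stem cells, the rare bone marrow cells that sustain all blood lineages. The mice were C57BL/6 and 8 to 12 weeks old. The sort took LSK cells (negative for lineage markers, positive for Sca-1 and Kit) that lacked CD34 and Flk2. Sin3B is a scaffold protein of histone deacetylase complexes that repress transcription. There were 2 Sin3B KO and 2 WT libraries, numbered 1 and 2 within each genotype. How the Sin3b gene was deleted, and whether libraries of a genotype came from separate animals, is not stated in the labels. All p-values therefore rest on a spread between libraries that may be technical.

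Cyclins are short-lived proteins that switch on cyclin-dependent kinases. Cyclin A2 acts with Cdk2 and Cdk1 through S and G2 phase, and B cyclins bind Cdk1 to drive entry into mitosis, until the anaphase promoting complex, an ubiquitin ligase that uses Ube2c, marks them for destruction. Transcription of these genes peaks late in the cycle, driven by the MuvB complex with B-Myb (Mybl2) and Foxm1, and is kept low in resting cells by the DREAM complex, of which MuvB is also a part. Most long-term stem cells of adult marrow are quiescent, and few are in G2 or M phase at a given time. In bulk RNA, fewer cells of a type and less RNA per cell cannot be told apart.

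MuvB reaches many of these genes through a short element, the cell cycle genes homology region (CHR, TTTGAA), often near CCAAT boxes, which bind the factor NF-Y. Among the genes named, 8 (all but Ccna2 and Foxm1) had an entry among the RefSeq promoters used (build GRCm38.p6). The 160 bases before the start were searched on both strands for TTTGAA and for CCAAT. The first was found in 5 of the 8, against 9.76% of all 32851 promoter entries (some genes have several) in windows of the same length, and the second in 7 of the 8, against 25.6%. Both stood together in 5 of the 8, against 2.53% of all entries. The windows of 6 genes are shown because they set the 3 genes that were higher in both Sin3B KO libraries (Cdk1, Ccnf and Ccnb2) beside 3 genes that differed mainly between the libraries numbered 1 and 2 (Ccnb1, Ube2c and Mki67). Each runs 5′ to 3′ along its gene, with matches to either motif in capitals (TTTGAA or its reverse complement, and CCAAT or its reverse complement).
Cdk1 (chr10:69352913-69353072, minus strand): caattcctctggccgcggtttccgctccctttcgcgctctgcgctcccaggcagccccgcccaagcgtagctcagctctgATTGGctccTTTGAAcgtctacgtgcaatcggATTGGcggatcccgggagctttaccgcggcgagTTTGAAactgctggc
Ccnf (chr17:24251410-24251569, minus strand): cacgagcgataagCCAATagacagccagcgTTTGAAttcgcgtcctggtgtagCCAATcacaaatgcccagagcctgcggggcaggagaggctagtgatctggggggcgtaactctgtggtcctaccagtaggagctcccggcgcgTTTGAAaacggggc
Ccnb2 (chr9:70421555-70421714, minus strand): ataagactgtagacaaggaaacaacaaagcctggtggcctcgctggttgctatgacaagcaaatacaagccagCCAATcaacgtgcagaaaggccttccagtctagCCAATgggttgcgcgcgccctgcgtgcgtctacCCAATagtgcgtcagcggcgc
Ccnb1 (chr13:100786487-100786646, minus strand): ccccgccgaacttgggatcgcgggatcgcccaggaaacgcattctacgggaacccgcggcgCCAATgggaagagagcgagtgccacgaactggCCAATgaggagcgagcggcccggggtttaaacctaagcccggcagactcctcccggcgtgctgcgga
Ube2c (chr2:164769769-164769928, plus strand): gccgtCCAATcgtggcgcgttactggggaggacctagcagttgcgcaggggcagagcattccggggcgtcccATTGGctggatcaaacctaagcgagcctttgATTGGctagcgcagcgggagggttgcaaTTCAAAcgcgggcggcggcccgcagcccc
Mki67 (chr7:135716380-135716539, minus strand): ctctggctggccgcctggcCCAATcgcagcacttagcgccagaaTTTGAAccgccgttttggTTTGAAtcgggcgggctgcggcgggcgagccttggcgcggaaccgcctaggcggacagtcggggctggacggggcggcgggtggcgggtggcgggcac
Cdk1 and Ccnf each held a TTTGAA match close to the start, with its first base 15 and 14 bases before it, and a second one at 71 and 130 bases. Ccnb2 held 3 CCAAT boxes at 87, 54 and 21 bases and no TTTGAA in the window. Ccnb1 likewise held CCAAT boxes, at 99 and 67 bases, without TTTGAA. Ube2c had TTTGAA at 29 bases on the opposite strand, and Mki67 had it at 116 and 98 bases. Each set of 3 had 2 genes with TTTGAA and 1 without. The sets were picked by their library values and leave out Top2a, which held TTTGAA. They cannot show whether the motif goes with the difference between genotypes. Other spellings of the element and bases after the start were not searched, so a window without TTTGAA does not show that a gene lacks the element. A match describes the letters of the window and is no measured binding site.

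**Figure D1:**
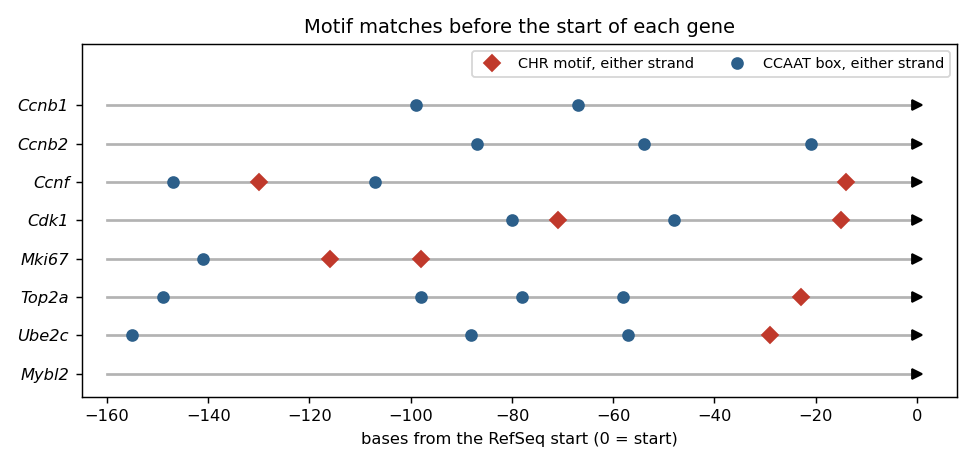
Matches to TTTGAA (CHR, red diamonds) and CCAAT (blue circles) on either strand in the 160 bases before the RefSeq start of 8 genes; the x axis gives bases from the start, and each mark is the first base of a match. TTTGAA was matched in 5 of the 8 windows, and Mybl2 held neither motif.

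Sin3b itself had 755 and 647 normalised reads in the Sin3B KO libraries, against 1522 and 1825 in the WT libraries, so the KO kept 41.9% of the WT mean. Its log2 fold change was -1.25 (SE 0.22, limma with Benjamini-Hochberg adjustment, adjusted p = 0.548), while the authors' deposited table gives Sin3b a log2 fold change of -1.03 and an adjusted p of 0.00249, among its called genes. Depth was between 9950979 and 13700630 reads in the listed genes. Kit, a gene of the sort gate, was at 20868 and 19845 in the KO, against 22329 and 17785 in WT. Cd34 RNA, whose protein the gate excludes, was read at 5623 and 5133 in the KO and at 6508 and 4945 in WT. The HSC marker Hlf, a transcription factor gene, was at 5353 and 7054 in the KO and at 8877 and 7805 in WT. Across all genes 0 of 9244 (0%) passed an adjusted p under 0.05 (limma, smallest adjusted p = 0.548), and 459 genes (4.97%) were higher and 365 (3.95%) lower at an unadjusted p under 0.05. The authors' deposited table calls 31 of 9796 genes (0.316%), and 0 of the 9 mitotic genes are among them.

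Levels can be set side by side between genes only per kilobase of annotated exon, and on that scale the order was led by cyclin B2. The length joined all annotated exons of a gene, from 1531 bases for Ccnb2 to 10061 for Mki67. The order thus depends on which exons are annotated, used by these cells or not. In the KO, Ccnb2 was at 598 ± 226 normalised reads per kilobase, followed by Top2a at 325 ± 39.1 (SD, n = 2 each). In WT, Ccnb2 was at 299 ± 64.7 and Top2a at 268 ± 63.2 reads per kilobase. The libraries of Ccnb2 and Top2a lay apart in the KO and overlapped in WT. Cdk1, at 178 ± 37.5 in the KO and 110.2 ± 2.30 in WT per kilobase, and Mki67, at 175 ± 79.4 in the KO and 175 ± 69.5 in WT, came next. These overlapped in the KO, and in WT both Mki67 libraries lay above both Cdk1 libraries. Ube2c, Ccnf and Ccnb1 followed, in that order in both genotypes, at 123, 115 and 90.9 per kilobase in the KO and at 88.3, 80.8 and 66.6 in WT. Neighbours among these 3 overlapped in both genotypes. Ccna2 and Foxm1 closed the order, at 24.3 ± 12.5 and 15.0 ± 2.84 per kilobase in the KO, against 34.6 ± 2.37 and 31.2 ± 17.4 in WT, and overlapped each other in both genotypes. In counts they stood near the table's lower limit, a mean of 120.2: by mean count Ccna2 was 9243rd and Foxm1 9091st of the 9244 genes, while Top2a was 891st.

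Cyclin B2, cyclin F and Cdk1 were each higher in both Sin3B KO libraries than in either WT library. Cdk1, the kinase at the centre of mitotic entry, had 1008 and 746 normalised reads in the KO, against 536 and 552 in WT. The WT libraries were nearly equal, and the lower KO library (95% counting interval 697 to 799) lay above both of them (the higher, WT 2, from 507 to 600). Its mean was 1.61-fold higher in the KO (log2 fold change 0.67, SE 0.25, 95% confidence interval 0.11 to 1.24), with an adjusted p of 0.548 by limma and 0.0247 before adjustment. For Cdk1 the authors' deposited table gives a log2 fold change of 0.53 and an adjusted p of 0.420.

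Ccnb2, one of the cyclins that activate Cdk1, had 1160.1 and 672 reads in the KO, against 528 and 388 in WT. Both genotypes were higher in the library numbered 1, and the lower KO library still lay above both WT libraries. Its mean was 2.0-fold higher in the KO (log2 fold change 0.96, SE 0.32, 95% confidence interval 0.24 to 1.68, limma adjusted p = 0.548, unadjusted 0.0146). The authors' deposited table gives a log2 fold change of 0.70 and an adjusted p of 0.258 for Ccnb2, its smallest among the 9 genes.

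Ccnf encodes a cyclin that binds no kinase of the cycle and serves as a substrate receptor of an SCF ubiquitin ligase. It had 1030.3 and 762 reads in the KO, against 638 and 622 in WT. As for Cdk1, the WT values were close together and the KO values spread above them. The log2 fold change was 0.49 (SE 0.24, limma adjusted p = 0.550), and its 95% confidence interval, -0.06 to 1.05, included 0. Ccnf and Cdk1 had the most similar profiles of any pair among the 9 genes, with a root mean square difference of 0.10 on the log2 scale over the 4 libraries.

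**Figure D2:**
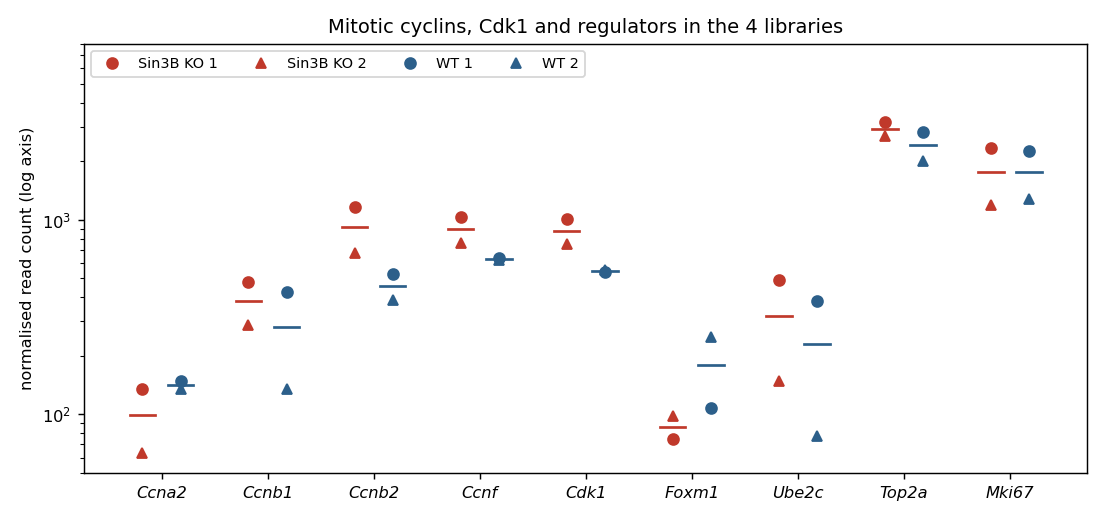
Normalised read count (log axis) of the 9 genes in each library, Sin3B KO (red) left of WT (blue), with circles for libraries numbered 1, triangles for those numbered 2 and bars for means of 2 libraries. Ccnb2, Ccnf and Cdk1 lie higher in both KO libraries and Foxm1 lower, while the other 5 genes overlap between genotypes.

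Of the 9 genes, 3 thus had both KO values above both WT values, where 24.7% of all genes did, and 1 had both below, where 19.4% did. Cyclins and markers of the remaining group overlapped between genotypes. Ccnb1, the other cyclin B, had 479.6 and 287 reads in the KO, against 428 and 135 in WT. Library WT 2 stood low, and the other 3 lay between 287 and 479.6. The log2 fold change was 0.63 (SE 0.53, limma adjusted p = 0.669), with a 95% confidence interval from -0.58 to 1.84. GENCODE M21 lists a processed pseudogene of Ccnb1 and one of Ccnb2, whose reads the authors' counting, not given in the sources used here, could have split or shared.

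Per kilobase, Ccnb2 was 6.66 and 6.44 times the level of Ccnb1 in the KO libraries, and 3.40 and 7.94 times in the WT libraries. The ratio of the B cyclins was thus close in the KO libraries, and the WT libraries lay on either side of them. Ccnb1 over Cdk1 per kilobase was 0.557 and 0.450 in the KO, against 0.934 and 0.285 in WT. The sizes of these ratios depend on the exon lengths used, 1531 bases for Ccnb2, 4217 for Ccnb1 and 4934 for Cdk1.

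Ube2c, the enzyme that starts ubiquitin chains on mitotic cyclins, had 490.2 and 149 reads in the KO, against 382 and 77.1 in WT. It was higher in library 1 than in library 2 of each genotype, 3.29-fold in the KO and 4.95-fold in WT, the widest such gap of the 9 genes. The difference between genotypes was far smaller than that gap (log2 fold change 0.65, SE 0.78, limma adjusted p = 0.759). Exons of Ube2c overlap those of the opposite-strand gene Tnnc2, and exons of Ccna2 those of Exosc9; whether strand was used in counting is not given in the sources used here. Exons of Foxm1 overlap those of Tex52 and Gm44596 on the same strand, so strand cannot separate their reads.

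Top2a, the topoisomerase that untangles sister chromosomes, had 3179 and 2682 reads in the KO, against 2815 and 2009.8 in WT. Sin3B KO 2 lay below WT 1, so the genotypes overlapped (log2 fold change 0.30, SE 0.22, limma adjusted p = 0.648). Mki67, which encodes the Ki-67 protein that coats mitotic chromosomes, had 2325 and 1195 reads in the KO, against 2259.8 and 1271 in WT. Its KO and WT values were nearly the same within each number (log2 fold change -0.02, 95% confidence interval -0.84 to 0.80, limma adjusted p = 0.984).

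Ccna2 and Foxm1 had means on the other side of 0. Ccna2 had 136 and 63.3 reads in the KO, against 148 and 135 in WT. Only Sin3B KO 2 stood apart, with a counting interval of 49.5 to 79.9, and KO 1 lay between the WT values. The log2 fold change was -0.60 (SE 0.59, limma adjusted p = 0.712). Foxm1 had 74.97 and 98.1 reads in the KO, against 108 and 250.2 in WT. Both KO values lay below both WT values, in counts that may share reads with the genes overlapping Foxm1, but the counting intervals of KO 2 (80.6 to 118) and WT 1 (87.6 to 132) overlapped. Its log2 fold change was -0.93 (SE 0.59, 95% confidence interval -2.29 to 0.42, limma adjusted p = 0.599). Without WT replicate 2, its highest library, the log2 fold change was -0.33. Foxm1, known to drive cyclin B and Cdk1 transcription, was the only gene of the 9 with both KO values below both WT values. Of all genes 19.4% had that order, and 24.7% had both KO values above, as Ccnb2 and Cdk1 did. For these genes 0 differences passed.

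Over the 9 genes the median log2 fold change was 0.49, where the median of all genes was 0.03, and 6 of 9 were above 0, where 53.4% of all genes were. At an unadjusted p under 0.05 (limma), 2 of the 9 were higher, where 4.97% of all genes were, and 0 lower, where 3.95% were. Leaving out WT replicate 2 turned the median to -0.20 and left 4 of 9 above 0. Leaving out Sin3B KO replicate 1 brought it to 0.17, with 5 of 9 above 0. Without WT replicate 1 it was 0.54 and without Sin3B KO replicate 2 it was 0.71. Cdk1 stayed between 0.46 and 0.89, Ccnb2 between 0.57 and 1.36 and Ccnf between 0.27 and 0.71 in these 4 fits. Foxm1 stayed between -1.53 and -0.33. The direction of Cdk1, Ccnb2, Ccnf and Foxm1 could not turn in these fits, since their libraries did not overlap between genotypes. Ccnb1 turned to -0.20 without WT replicate 2, and Ube2c turned to -0.50 without WT replicate 2 and to -0.21 without Sin3B KO replicate 1. Where a genotype is left with 1 library, that library is assumed to vary like the others.

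**Figure D3:**
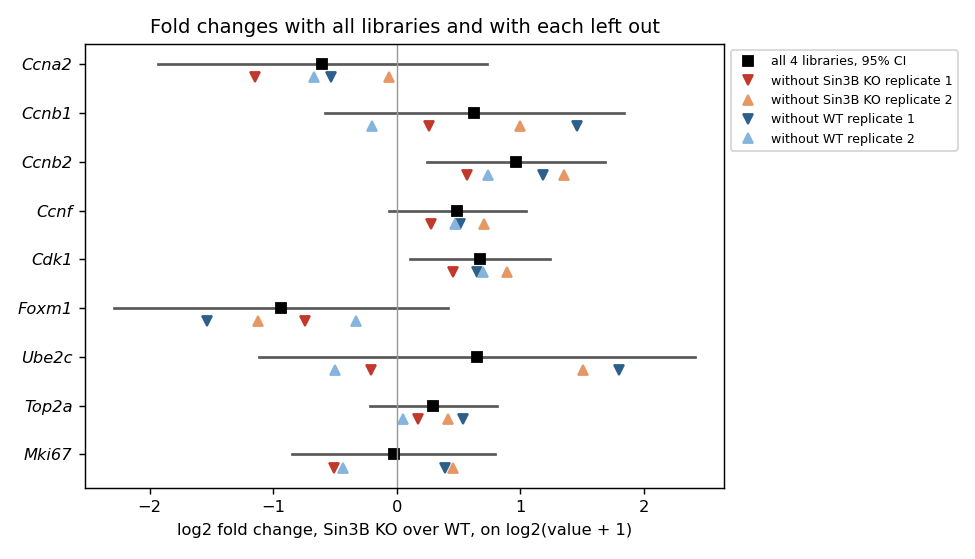
Log2 fold change of Sin3B KO over WT on log2(value + 1) for the 9 genes: squares and lines give the fit to all 4 libraries with its 95% confidence interval, and triangles below give the fits with 1 library left out. Ccnb1, Ube2c and Mki67 cross 0. Cdk1, Ccnb2 and Ccnf stay above 0 and Foxm1 below 0, as genes without overlap between genotypes must.

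The number of a library went with larger differences than the genotype did for several of these genes. Library 1 was above library 2 in both genotypes for 7 of the 9 genes, where 27.3% of all genes were, and below it in both for 1, Foxm1, where 32.3% were. Cdk1 was the exception, at 1.35-fold higher in KO 1 than in KO 2 and 0.971-fold in WT 1 against WT 2. For Ccnb1 the ratio was 1.67 in the KO and 3.18 in WT, and for Mki67 it was 1.95 and 1.78. Foxm1 ran the other way, with ratios of 0.764 in the KO and 0.433 in WT. What the number marks is not stated in the labels.

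Markers of more differentiated cells moved with the same number. The 6 granulocyte and monocyte markers summed to 43783 and 17397 reads in the KO, against 44956 and 12197 in WT. Of these, 6 of 6 were higher in library 1 of both genotypes, where 27.3% of all genes were. Mpo, the peroxidase of neutrophil granules, was at 19732 and 5569 in the KO and at 17017 and 2359 in WT, and Lyz2, lysozyme, at 8755 and 5694 in the KO and at 12893 and 4674 in WT. The 5 measured B lineage markers summed to 3968 and 1627 in the KO, against 3363 and 1489.5 in WT, and 5 of 5 were higher in library 1 of both genotypes. The most abundant were Cd79b, a signalling chain of the B cell receptor, at 1509 and 1196 in the KO, against 1587 and 1275 in WT, and Igll1, a surrogate light chain, at 992 and 80.3 in the KO, against 530.2 and 37.6 in WT. The 4 markers of multipotent and lymphoid progenitors, led by Flt3, the receptor also known as Flk2 (830.4 and 354 in the KO, 1169.8 and 372 in WT), summed to 2417 and 715 in the KO, against 2693 and 591 in WT. Cd48, a surface marker of those progenitors, was at 908 and 162 in the KO, against 798 and 137 in WT. None of these markers was at 0 in a library. The part of such cells in the values of Ccnb1, Ube2c and Mki67 was not tested.

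**Figure D4:**
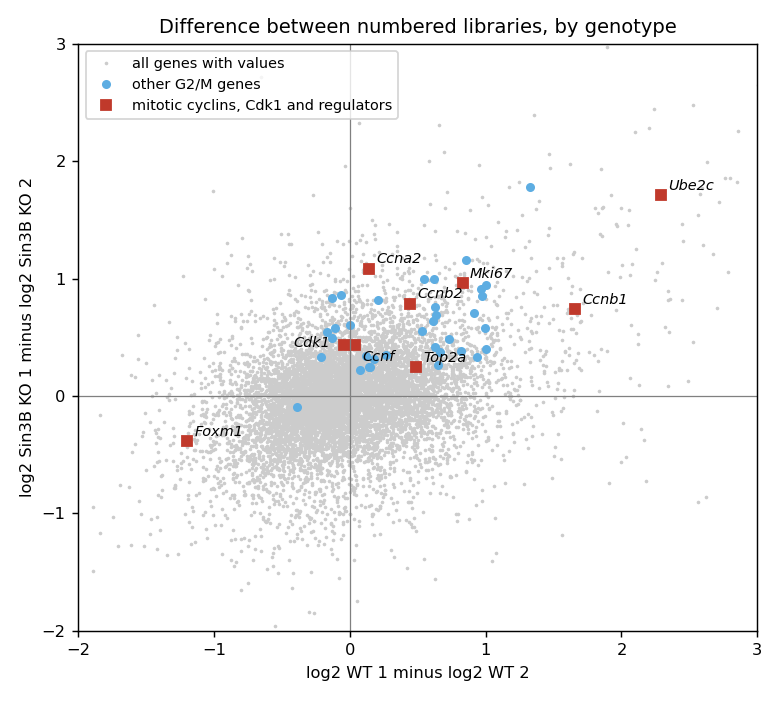
Difference in log2(value + 1) between the libraries numbered 1 and 2 within WT (x axis) and within Sin3B KO (y axis), for all 9244 genes (grey), other G2/M genes (blue) and the 9 mitotic genes (red). The axes run from -2 to 3 and leave out 77 genes. Ube2c and Ccnb1 lie far to the upper right, Cdk1 and Ccnf near 0 on the x axis, and Foxm1 at the lower left.

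Comparing libraries of the same number, the KO was higher in both pairs for 6 of the 9 genes, where 35.0% of all genes were, and lower in both for 2, where 28.9% were. Log2 differences of KO 1 over WT 1 and of KO 2 over WT 2 were 1.13 and 0.79 for Ccnb2, 0.91 and 0.43 for Cdk1, and 0.69 and 0.29 for Ccnf. Those of Ccnb1 were 0.17 and 1.09, those of Ube2c 0.36 and 0.94, and those of Top2a 0.18 and 0.42. Foxm1 was lower in both, at -0.53 and -1.34, as was Ccna2, at -0.13 and -1.08. Mki67 was at 0.04 and -0.09. The first 3 genes differed more between the libraries numbered 1, and the next 3 more between those numbered 2. For Ccnb2, Cdk1, Ccnf and Foxm1 both differences had to share a sign, since their libraries did not overlap between genotypes.

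Of the erythroid markers, some lay apart between genotypes and others differed by library. The 5 measured ones summed to 16164 and 6687 in the KO, against 5575 and 5188 in WT. For 3 of the 5 both KO values were above both WT values, where 24.7% of all genes were, and 0 passed the test. Car1, a carbonic anhydrase, was at 10488 and 3984 in the KO, against 2847 and 3353 in WT, and Gata1, the erythroid transcription factor, at 3144 and 1842, against 1004 and 1063. Both were highest in Sin3B KO 1, as were Cdk1, Ccnb2, Ccnf, Ccnb1, Ube2c, Top2a and Mki67. Klf1, an erythroid transcription factor gene, overlapped between genotypes, at 1404 and 282 in the KO, against 579 and 367 in WT. Alas2, the erythroid enzyme of haem synthesis, was high in both libraries numbered 1, at 555 and 37.5 in the KO, against 756 and 7.91 in WT. The part of erythroid cells in the values of the mitotic genes was not tested.

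Genes of the same phase outside the set were mostly higher in the KO as well. Of 35 other G2/M genes, 33 lay above 0 on the log2 fold change scale (median 0.48), where 53.4% of all genes did, and 0 passed. For 13 both KO values were above both WT values, where 24.7% of all genes were. For 1 both were below, where 19.4% were. Cdca8, a subunit of the chromosomal passenger complex, was the most abundant, at 1655 and 1174 in the KO, against 771 and 844 in WT. Ckap2l, a spindle protein, was at 1177 and 937 in the KO, against 670.4 and 775 in WT. Aurkb, the kinase of the passenger complex, was chosen after its values were seen: it had 876 and 736 reads in the KO, against 408 and 371 in WT (log2 fold change 1.04, SE 0.25, limma adjusted p = 0.548). In library 1 of both genotypes 27 of the 35 were higher, where 27.3% of all genes were, so this list too moved with the number.

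Genes that control Cdk1 activity, directly or through other kinases, lay mostly above 0 on the log2 fold change scale. Of 14 named, 12 had values, 10 above 0 and 2 below, with a median log2 fold change of 0.25, and 0 passed. Of all genes, 53.4% were above 0. Ccnh and Cdk7, partners in the kinase that activates Cdk1 by phosphorylation, were the most abundant. Ccnh was at 1561 and 1478 in the KO, against 1799 and 1146 in WT, and Cdk7 at 1213 and 1237, against 1173 and 1015. Wee1 and Bora were chosen after their values were seen. Wee1, the kinase that holds Cdk1 inactive, was at 474 and 492 in the KO, against 814 and 894 in WT (log2 fold change -0.82, SE 0.23, limma adjusted p = 0.548). Bora, a cofactor in the activation of Plk1, was at 883 and 812 in the KO, against 583 and 445 in WT (log2 fold change 0.73, SE 0.25, limma adjusted p = 0.548). Neither gene's libraries overlapped between genotypes. Of the 12 genes, 6 had both KO values above both WT values, where 24.7% of all genes did, and 1 had both below, where 19.4% did.

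The 17 measured genes of the anaphase promoting complex and its partners had a median of 0.10, with 10 above 0 and 0 passing. Anapc5 was at 3619.6 and 3036 in the KO, against 3576 and 3677 in WT, and Anapc1 at 2695 and 2446, against 2142 and 2666. The 10 measured MuvB and DREAM genes had a median of -0.02, with 4 above 0 and 0 passing. Their most abundant members were the histone chaperone Rbbp4, at 6136 and 5002 in the KO, against 5183 and 3929.6 in WT, and the pocket protein gene Rbl2, at 2109 and 1799 in the KO, against 2458 and 1598 in WT. Beside them, the median log2 fold change of all genes was 0.03, and 53.4% of all genes were above 0.

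The other cyclins and cyclin-dependent kinases had smaller medians than the mitotic genes. Ccnh and Cdk7 are counted here as well as among the genes that control Cdk1 activity. The 16 other cyclins had a median of 0.08, with 9 above 0, and were led by Ccnd2, a cyclin of G1, at 11237 and 14096 in the KO, against 10635 and 12990 in WT. Ccnt1, a cyclin of transcription elongation, was at 1789.6 and 1838 in the KO, against 1682 and 1511 in WT. The 15 other cyclin-dependent kinases had a median of -0.12, with 5 above 0. Cdk4, the kinase of the D cyclins, was at 6969 and 7091 in the KO, against 5301 and 6580 in WT, and Cdk2 at 1771 and 1828, against 1722 and 1861. In both lists 0 passed. Of all genes, 53.4% were above 0.

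Genes of the preceding phase gave a further comparison. Of 30 G1/S genes, 25 were above 0, where 53.4% of all genes were, with a median log2 fold change of 0.37, and 0 passed. For 12 both KO values were above both WT values, where 24.7% of all genes were. For 2 both were below, where 19.4% were. Mcm6 and Mcm3 of the replicative helicase were the most abundant, with Mcm3 at 7341 and 6520 in the KO, against 4791 and 4876 in WT, and Mcm6 at 9048 and 5961, against 7560.3 and 7193. In library 1 of both genotypes 11 of the 30 were higher, against 27 of the 35 other G2/M genes and 27.3% of all genes. The difference between these lists was not tested.

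**Figure D5:**
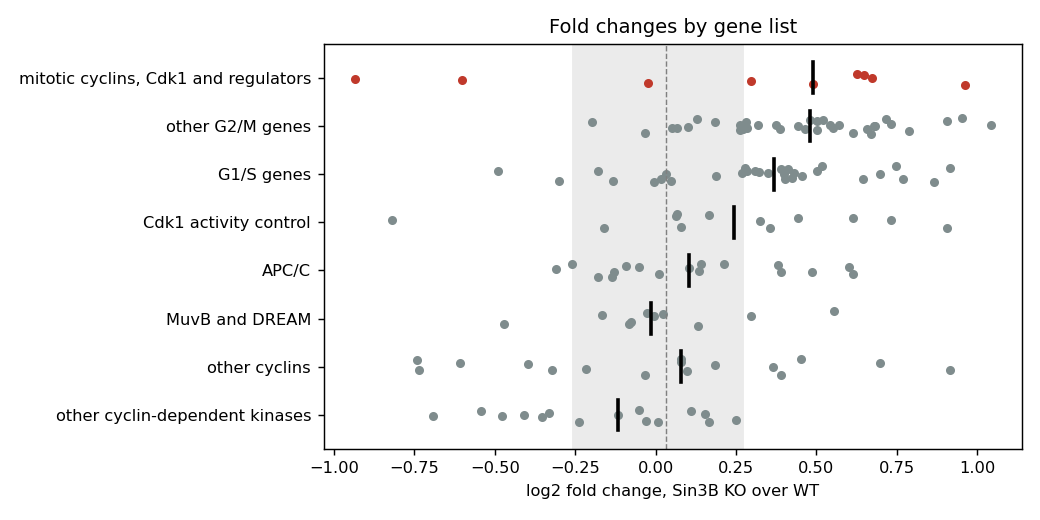
Log2 fold change of Sin3B KO over WT for each measured gene of 8 lists (points) with the list's median (black bar); the grey band spans the quartiles of all genes and the dashed line is their median. The 9 mitotic genes range from -0.93 to 0.96, and the medians of the G2/M and G1/S lists lie right of the band.

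The genes whose profile over the 4 libraries lay nearest to the mean of the 9 were Gbp5, Txnrd2, Dr1, Txnl1 and Mgst3. Their root mean square differences from it ran from 0.015 to 0.038 on the log2 scale. Gbp5 had 576 and 359 reads in the KO, against 457 and 315 in WT, high in both libraries numbered 1 and higher in the KO within each number. With 4 libraries many genes can come close to any profile, and the individual genes of the set lay farther from their own mean, from 0.15 for Top2a to 0.92 for Foxm1.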

How the data were processed

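Libraries of polyA RNA were made with the SMARTer low-input method from sorted cells, per the labels' protocols. Bowtie, DESeq and the build mm9 are named in the submitters' processing notes. Which tool counted reads, with which strand setting and annotation, is not given in the sources used here. A single table was deposited, and its library columns hold a signal made by the authors, read counts divided by 1 size factor per library. Every value was a whole multiple of its library's step within 0.01 of a step. Per the file headers, the authors also deposited their own log2 fold change, its error, a score (their quotient) and p-values before and after adjustment. The table holds 9796 genes, the lowest with a mean of 120.2; 552 of them (5.63%) have no library values and were left out.

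One step was taken as 1 read for depths and exact Poisson counting intervals (95%), which cover counting error only. Differences were tested with limma 3.58.1 in R 4.3.3 (trended prior, Benjamini-Hochberg adjustment over 9244 genes, threshold 0.05) on log2(value + 1), after a filter (2 or more libraries at a value of 1 or above) that removed 0 genes. Fold changes on this scale understate those of low genes. The fit was tested on simulated data, where it recovered the sizes of the changes put in on average, missed many of the smallest, and a larger share of its calls was false than the threshold allows. Exon lengths came from GENCODE M21 (GRCm38) by Ensembl identifier, and promoters from RefSeq by symbol; the files use mm9, so no coordinates of theirs are given.

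The genes and lists were chosen with earlier results of these data known. Named genes are the 9 with values, Sin3b, each list's passing genes or, with none, its 2 most abundant, and the 5 nearest profiles; Aurkb, Wee1, Bora, Klf1 and Alas2 were named after their values were seen. One marker gene is not reported here. Lists can share genes, such as Ccnh, Cdk7, Plk1, Cdc20, Ccne1 and Ccne2. No list was tested as a set. The alternatives were other pseudocounts, filters and scalings, no trend, the replicate block and each library left out. The planned edgeR and DESeq2 fits on reads recovered from the steps were not run. In place of the planned edgeR TMM factors, a trimmed mean of log2 ratios to the mean over libraries, without weights, was computed.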

Additional observations from a re-analysis of the deposited data

How the results depend on the processing

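With all 4 libraries 0 of 9244 genes and 0 of the 9 mitotic genes passed (limma, adjusted p under 0.05). Neither count changed under pseudocounts of 0.1 and 5, a filter on a mean of 500 (5807 genes), 3 other scalings or no trend. The fit with no filter is the same as the main fit, since the main filter removed 0 genes, and could not change them. In any of the 13 alternatives, 0 of the 9 passed. With the replicate number as a replicate block 27 genes passed, 15 higher and 12 lower in the KO, and 0 of the 9, with Ccnb2 closest (limma adjusted p = 0.0934). Differences between libraries 1 and 2 were correlated between genotypes over genes (0.465), but the labels do not say that the number marks a pair. With 1 library left out, 0 to 1 genes passed (1 each when Sin3B KO replicate 2 or WT replicate 2 was dropped), the median of the 9 ran from -0.20 to 0.71, and 4 to 7 of the 9 were above 0. The log2 fold change ran from -0.20 to 1.46 for Ccnb1, from -0.50 to 1.80 for Ube2c and from -0.50 to 0.46 for Mki67, whose direction turned without Sin3B KO replicate 2 and without WT replicate 1 (0.39); the cause was not tested. In the other alternatives each of the 9 genes that was tested kept its direction. Equal upper quartiles moved the median of all genes to -0.08 and that of the 9 to 0.38, a like shift. The filter at 500 left 5 of the 9. The planned edgeR and DESeq2 fits were not run. Depth limits Foxm1 and Ccna2 most, with 78 to 253 and 71 to 141 reads a library.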
